A study of Mus musculus with 9 samples.

Results

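The transcriptome outside the respiratory chain and the ribosomes was compared between mKate2+ and mKate2- SB28 cells, a mouse glioblastoma line, sorted from co-cultures with astrocytes. Members were the genes above 1 CPM (counts scaled to a common library total) in at least 2 of the 6 SB28 libraries, after leaving out by symbol the families mt-, Rpl, Rps, Nduf, Cox, Uqcr, Atp5, Timm, Tomm, Mrpl and Mrps. Of the 49315 gene IDs in the count table, 11854 passed this minimum, 327 of these belonged to the families left out, and 11527 were members. The symbols removed 9 Rps6k genes, which encode kinases and not ribosomal proteins. The question was which genes shifted in the same direction in every mKate2+ library relative to the mean of the mKate2- libraries.

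GFP-labelled SB28 cells were grown for 2 days at a ratio of 1 to 1 with astrocytes of mito::mKate2 mice, in which the ubiquitous CAG promoter drives a red fluorophore, mKate2, targeted to mitochondria. The labels give the strain as C57BL6, no treatment, and DMEM F12 medium with 2% FBS, 5% N2 supplement and 20 ng/ml of EGF and FGF. The study's methods give the co-culture medium a higher share of FBS and a lower share of N2 supplement. mKate2+ SB28 cells held the donor fluorophore at sorting and mKate2- SB28 cells did not, with 3 libraries in each group and 3 of astrocytes, so that both tumor groups had been in contact with astrocytes and neither was SB28 grown alone. SB28 is a single cell line, the replicates were 3 co-cultures, and a gate on fluorescence reports signal at the time of sorting only. The gates written in the labels give CellTrace Violet to the tumor cells, whereas the study's methods stain the astrocytes with it, and libraries were assigned by their titles. The mKate2 transgene was not analysed here. Total counts were 27187348, 35891589 and 29839630 in mKate2- replicates 1, 2 and 3, and 36051914, 39287841 and 34175016 in mKate2+ replicates 1, 2 and 3.

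Mitochondria can pass from one cell to another through thin actin-based bridges, by vesicles or by uptake of released organelles. A recipient cell keeps its own nucleus. Mitochondria feed the synthesis of amino acids and nucleotides, generate reactive oxygen and signal to the nucleus, and glioblastoma cells also use actin, growth factor and cell cycle programs that can be read in their RNA.

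The cell type of the 6 libraries was checked first against an SB28 and glioma list of 9 genes, with CPM of the library totals. The most abundant was Vim, which encodes the intermediate filament vimentin, at 6794, 8198 and 7549 CPM in the mKate2-, 7499, 7862 and 7400 CPM in the mKate2+ and 12331, 11523 and 8311 CPM in the astrocyte libraries. Vim, Sox2, Nes, Trp53, Pdgfra and Olig2 averaged higher in astrocytes than in either SB28 group, whereas Nras, Pdgfb and Cd44 averaged higher in both SB28 groups. Nras, the growth factor-coupled GTPase, was at 206, 196 and 207 CPM in the mKate2- and 203, 219 and 203 CPM in the mKate2+ libraries, against 114, 127 and 116 CPM in astrocytes. Pdgfb, a growth factor ligand, was at 272, 251 and 234 CPM in the mKate2- and 257, 355 and 254 CPM in the mKate2+ libraries, against 70.2, 72.5 and 61.9 CPM in astrocytes. Both genes were thus higher in every SB28 library than in every astrocyte library. Olig2, a transcription factor of the oligodendrocyte lineage, was by contrast at 0.585 to 2.95 CPM in SB28 libraries and 155 to 268 CPM in astrocytes.

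The 16 astrocyte markers summed to 395, 404 and 390 CPM in the mKate2- libraries, to 423, 391 and 395 CPM in the mKate2+ libraries and to 1180, 1133 and 2718 CPM in astrocytes. Most of the sum in SB28 cells was Gja1, which encodes the gap junction protein connexin 43, at 241 to 284 CPM. Clu, a secreted chaperone gene, followed at 93.1 to 141 CPM, against 64.6 to 134 CPM in astrocytes, and neither Gja1 nor Clu averaged lower in SB28 cells than in astrocytes. Gfap was at most 0.268 CPM in SB28 libraries and at 8.83, 3.42 and 19.4 CPM in astrocytes, Aqp4 at most 0.402 CPM against 5.64, 6.82 and 59.7 CPM, and Slc1a3 at most 2.38 CPM against 173, 177 and 236 CPM. Gjb6 and Ntsr2 were at 0 in all 6 SB28 libraries but also at or near 0 in astrocytes. The sums of the mKate2+ and mKate2- libraries overlapped. The 14 microglia and macrophage markers summed to 1.88 to 3.65 CPM, with Cx3cr1 and Trem2 at 0 and Cd68 the most abundant, and the 10 oligodendrocyte markers to 22.4 to 28.4 CPM, nearly all of it Cnp, with Opalin and Ermn at 0. The 11 neuron markers summed to 39.2 to 50.1 CPM with Rbfox3 at 0 and Tubb3 the most abundant, the 10 endothelial and mural markers to 97 to 122 CPM with Flt1 the most abundant, and the 10 fibroblast and meningeal markers to 609 to 941 CPM with Col1a2 the most abundant. In bulk samples, fewer cells of a type and less RNA per cell cannot be told apart.

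One library stood apart before any gene was considered. A library's shift is the log2 ratio of its CPM, normalized by TMM (the trimmed mean of M-values) and raised by 0.5, to the mean of the mKate2- libraries raised by the same amount. The median absolute shift over the members was 0.077 in mKate2+ replicate 1, 0.216 in replicate 2 and 0.091 in replicate 3. More than 1.5-fold from the mKate2- mean were 100, 1293 and 145 members in that order, whereas each mKate2- library had between 54 and 71 such members relative to the mean of which it is a part. The chi-square per degree of freedom between counts was 15.8 for mKate2+ replicates 1 and 3, but 134 for replicates 1 and 2 and 121 for replicates 2 and 3, with 29.2 to 50.7 between mKate2- libraries. The counts over all members are therefore also given without mKate2+ replicate 2, as are fold changes and list medians that this moves by more than 1.5 times.

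The shift of this library followed gene length. Members with a mean normalized count above 50 were divided by exonic length into 10 bins, and in mKate2+ replicate 2 the median shift ran from 0.40 in the shortest bin (median 1392 bases) to -0.26 in the longest (median 12742 bases). The same medians were -0.005 and -0.022 in mKate2+ replicate 1, 0.018 and -0.058 in replicate 3, and 0.068 and -0.010 in mKate2- replicate 1. The share of genes higher in every mKate2+ library went from 26.1% in the shortest to 3.69% in the longest bin, and the share lower in every one from 6.27% to 38.4%.

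**Figure D1:**
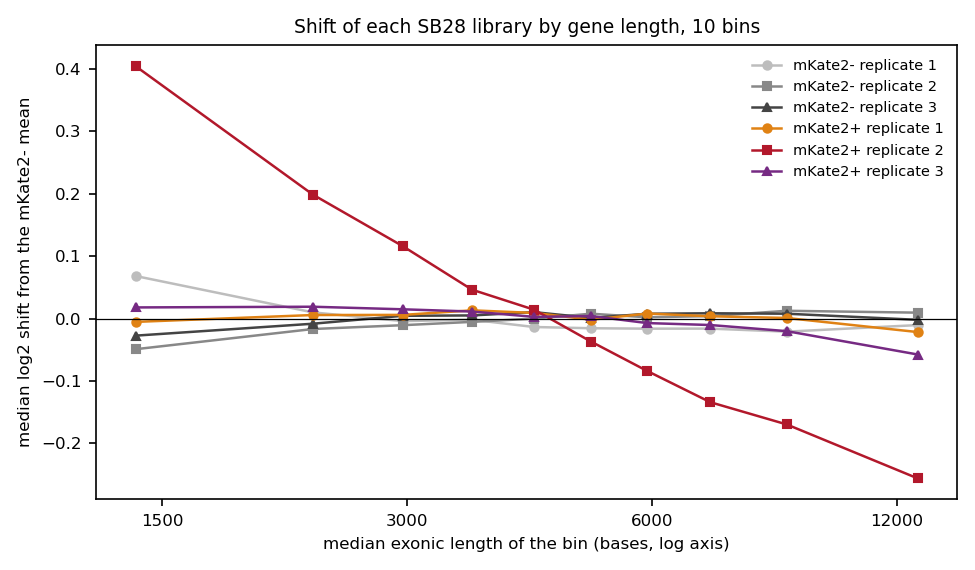
Median log2 shift from the mKate2- mean (vertical axis) of each of the 6 SB28 libraries against the median exonic length in bases of 10 length bins (log horizontal axis). The line of mKate2+ replicate 2 descends from 0.40 to -0.26, and the other 5 libraries stay between -0.06 and 0.07.

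Across the 11527 members, 1856 were higher and 2028 lower in every mKate2+ library than the mKate2- mean, against backgrounds of 16.7% and 17.2% over all 11854 genes tested. The groups did not overlap for 481 members higher and 591 lower in mKate2+ cells, where the backgrounds were 4.19% and 5.00%. These shares of the members, 16.1% and 17.6%, and 4.17% and 5.13%, lay within 1 percentage point of the backgrounds. Scaling by library totals alone, in place of TMM, gave 1164 higher and 2701 lower in every library, and 242 higher and 791 lower without overlap, whereas removal of the length trend turned the balance, with 2060 higher and 1790 lower in every library and 548 higher and 468 lower without overlap. The shifts were mostly small, with a median log2 fold change of 0.15 among members higher in every library and -0.19 among those lower. mKate2+ replicate 2 was the highest of the 6 libraries in 1190 of the 1856 and the lowest in 1308 of the 2028. With this library left out, 3001 members were higher and 3529 lower in both others, and 781 were higher and 987 lower without overlap. With each library left out in turn, members without overlap ranged from 781 to 1178 higher and from 987 to 1474 lower. Fewer libraries then have to agree.

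By edgeR's quasi-likelihood test, 0 members had an adjusted P value below 0.05, the smallest being 0.923, and DESeq2 also called 0. The unadjusted P value was below 0.05 for 82 members higher and 151 lower in mKate2+ cells, against backgrounds of 0.759% and 1.27%, and for 289 members in either direction by DESeq2. The 233 members in both directions together became 727, 213 or 488 without mKate2+ replicate 1, 2 or 3, and 136, 118 or 148 without mKate2- replicate 1, 2 or 3. When members also had to differ by more than 1.5-fold and to average more than 50 normalized counts, there were 19 higher and 20 lower members (backgrounds 0.194% and 0.169%). Without mKate2+ replicate 1, 2 or 3 these numbers were 190 and 70, 4 and 16, or 146 and 35. Without mKate2- replicate 1 or 2 they were 12 and 21 or 10 and 28. With DESeq2 they were 51 and 21, and with replicate number as a block 12 and 33. All fold changes therefore describe these libraries, since no member passed correction for the 11854 tests. The P values come from an unpaired fit and set the group difference against the spread between the 3 libraries within each group. The study's methods sort both groups from 3 co-cultures, and this shared origin did not enter the fit.

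Genes that were higher and lower differed in size and base composition. The median exonic length was 4538 bases for all members, 3356 bases for those higher and 6031 bases for those lower in every mKate2+ library. For members without overlap it was 3236 bases among the higher and 6845 bases among the lower. The median GC content of the exons was 51.7% in the higher and 47.5% in the lower members, against 49.6% for all. Length moved with the shift of mKate2+ replicate 2, and its part in these differences was not tested.

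Promoters of the genes on either side were read next, because members that move together invite a look at their start sites. In the RefSeq promoters of build GRCm38.p6, from 250 bases before to 50 after the start of a gene, 4 motifs were searched on both strands, namely the E-box CACGTG, which basic helix-loop-helix factors such as Myc bind, the ETS motif CGGAAG, the CCAAT box CCAAT and the antioxidant response element TGACNNNGC. Matches of different motifs overlapped in 91 of the 8475 members above a mean count of 50 that had a promoter. The E-box was in 7.24% of all 27025 promoters, in 10.8% of those of the members, in 13.2% of those of members higher and in 8.30% of those of members lower in every mKate2+ library. The ETS motif was in 17.2%, 34.3%, 40.4% and 33.2% of the same groups in the same order. The CCAAT box was in 37.9%, 39.6%, 39.1% and 37.0%, and the antioxidant response element in 12.5%, 14.8%, 13.6% and 15.0%. These shares are descriptions of letters in a window and carry no test.

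Of the 32 genes named below for their P values or for the size of their smallest shift, 22 had a promoter in the table. The promoters of 3 genes higher and 2 genes lower in every mKate2+ library are printed 5′ to 3′ on the strand of the gene, with each E-box and each ETS motif, in either orientation, in capitals. Comtd1 was at chr14:21848861-21849160 (minus strand), Ddt at chr10:75773325-75773624 (minus), Gar1 at chr3:129831347-129831646 (minus), Tmf1 at chr6:97179075-97179374 (minus) and Bod1l at chr5:41844266-41844565 (minus).
Comtd1: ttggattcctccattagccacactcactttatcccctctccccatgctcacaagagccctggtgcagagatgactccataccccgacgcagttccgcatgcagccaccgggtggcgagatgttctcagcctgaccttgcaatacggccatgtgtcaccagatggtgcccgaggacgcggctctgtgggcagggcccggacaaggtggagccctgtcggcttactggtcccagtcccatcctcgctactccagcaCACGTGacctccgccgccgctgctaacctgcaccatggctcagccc
Ddt: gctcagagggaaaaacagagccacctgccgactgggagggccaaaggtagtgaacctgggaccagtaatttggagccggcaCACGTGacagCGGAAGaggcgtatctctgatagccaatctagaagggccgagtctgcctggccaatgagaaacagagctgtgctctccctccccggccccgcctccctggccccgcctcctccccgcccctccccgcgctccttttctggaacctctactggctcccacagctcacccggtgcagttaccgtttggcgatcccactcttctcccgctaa
Gar1: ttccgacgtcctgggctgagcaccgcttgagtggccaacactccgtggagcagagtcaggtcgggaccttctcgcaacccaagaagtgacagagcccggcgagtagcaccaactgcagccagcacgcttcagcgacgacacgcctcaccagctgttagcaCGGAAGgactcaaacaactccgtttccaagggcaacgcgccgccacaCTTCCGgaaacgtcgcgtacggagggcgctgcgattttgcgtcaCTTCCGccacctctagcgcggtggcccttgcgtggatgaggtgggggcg
Tmf1: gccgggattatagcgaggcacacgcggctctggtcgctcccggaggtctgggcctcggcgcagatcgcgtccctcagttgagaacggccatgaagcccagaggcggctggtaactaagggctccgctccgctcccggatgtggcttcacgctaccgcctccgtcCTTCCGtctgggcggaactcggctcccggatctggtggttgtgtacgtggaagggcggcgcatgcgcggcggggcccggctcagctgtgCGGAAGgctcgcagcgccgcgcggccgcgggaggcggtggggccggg
Bod1l: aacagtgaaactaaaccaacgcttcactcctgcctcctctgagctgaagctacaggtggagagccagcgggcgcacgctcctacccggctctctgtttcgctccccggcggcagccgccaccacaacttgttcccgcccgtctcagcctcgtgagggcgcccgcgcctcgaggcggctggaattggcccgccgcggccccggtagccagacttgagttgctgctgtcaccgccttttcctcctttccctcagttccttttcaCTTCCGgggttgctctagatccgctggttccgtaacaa
Comtd1 held 1 E-box and Ddt held 1 E-box and 1 ETS motif, while Gar1 held 3 ETS motifs, Tmf1 held 2 and Bod1l held 1. Comtd1 and Ddt were printed because they were the only 2 of the 22 promoters that held an E-box, so the 5 promoters say nothing of how often it occurs on either side.

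Among the higher members, those with the smallest P values included 2 components of small nucleolar RNPs, the particles that guide modification of ribosomal RNA. Gar1, a protein of the H/ACA class of these particles, was at 27.8, 22.1 and 28.3 CPM in mKate2- replicates 1 to 3 and at 34.9, 50.5 and 31.3 CPM in mKate2+ replicates 1 to 3. All 3 mKate2+ libraries were above all 3 mKate2- libraries, with replicate 2 the highest. Its log2 fold change was 0.58 (standard error 0.19, edgeR, unadjusted P = 0.0159), and 0.34 without mKate2+ replicate 2. Fbl, or fibrillarin, the methyltransferase of the C/D class, was at 122, 108 and 129 CPM and at 140, 165 and 143 CPM in the same order. Here too the groups did not overlap, and the log2 fold change was 0.32 (standard error 0.10) with all libraries and 0.23 without mKate2+ replicate 2.

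H2afx encodes the histone variant H2A.X, which is phosphorylated at DNA breaks. It was at 107, 111 and 132 CPM in mKate2- and 132, 148 and 149 CPM in mKate2+ libraries, so that the highest mKate2- and the lowest mKate2+ library nearly met. Its log2 fold change of 0.30 (standard error 0.10) was 0.27 without mKate2+ replicate 2 and 0.17 after removal of the length trend. Ddt, which encodes D-dopachrome tautomerase, a relative of the cytokine MIF, was at 5.87, 7.79 and 6.07 CPM in mKate2- and 8.77, 13 and 8.35 CPM in mKate2+ libraries. The separation rested on all 3 mKate2+ libraries, with replicate 2 the highest, and the log2 fold change was 0.61 (standard error 0.21) with it and 0.37 without it. A gene model on the same strand, Gm20441, overlaps Ddt, so reads of the 2 may have been divided between them.

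Comtd1 and Gnb1l separated the groups without leaning on mKate2+ replicate 2. Comtd1, named for a catechol O-methyltransferase domain, was at 5.76, 6.83 and 6.56 CPM in mKate2- and 9.23, 7.72 and 8.58 CPM in mKate2+ libraries, a log2 fold change of 0.41 (standard error 0.14) that was 0.47 without that library. It overlaps Vdac2 on the opposite strand. Gnb1l, a WD repeat protein gene, was at 10.3, 10.6 and 11.2 CPM and at 13.7, 14.9 and 13.1 CPM, a log2 fold change of 0.38 (standard error 0.11, edgeR, unadjusted P = 0.00889) that was 0.32 without mKate2+ replicate 2. Rtl10 overlaps Gnb1l on the same strand. Thyn1, whose product is a nuclear protein, was at 36.7, 35 and 38.2 CPM and at 40.7, 55.6 and 45.3 CPM, and its log2 fold change went from 0.37 to 0.23.

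Several of the higher members were close to the detection minimum. Gm26792, a lincRNA gene lying opposite Cuedc2, had the smallest P value of the higher members above a mean count of 50 and was at 1.93, 1.79 and 1.89 CPM in mKate2- and 3.26, 3.19 and 2.76 CPM in mKate2+ libraries. Its 3 mKate2+ values were close to one another, and its log2 fold change was 0.71 with and 0.68 without mKate2+ replicate 2. Ropn1l, a gene of sperm flagella, was at 2.44, 2.17 and 2.09 CPM and at 3.40, 4.78 and 2.79 CPM in the same order. Gsta4, a glutathione transferase that detoxifies products of lipid peroxidation, was at 1.17, 1.32 and 1.44 CPM and at 2.11, 2.47 and 1.77 CPM. The log2 fold changes of Ropn1l and Gsta4 were 0.71 and 0.69, or 0.47 and 0.56 without mKate2+ replicate 2. All 3 genes separated the groups, and Gsta4 stood at 59.9 CPM on average in astrocytes, far above either SB28 group.

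The same held for Tagln, which encodes the actin-binding protein transgelin. It was at 0.510, 0.991 and 1.11 CPM in mKate2- and 1.78, 3.57 and 1.31 CPM in mKate2+ libraries, and averaged 44.5 CPM in astrocytes. Its log2 fold change of 1.34 (standard error 0.45) was the largest among the higher genes named for P value or smallest shift and was 0.81 without mKate2+ replicate 2. It overlaps Pcsk7 on the opposite strand. The remaining higher members with the largest smallest shifts were AA986860, G430095P16Rik, 2010001A14Rik, Gm17638 and Gm17494, with log2 fold changes of 0.48, 0.76, 0.82, 0.43 and 0.74, or 0.50, 0.46, 0.50, 0.41 and 0.48 without mKate2+ replicate 2. For Gm17638 the value without mKate2- replicate 1 was 0.66. For AA986860 the 3 mKate2+ libraries were nearly level at 3.04, 2.80 and 2.91 CPM, above 1.86, 2.26 and 2.15 CPM in mKate2- libraries. Gm17638 overlaps Eif3d, G430095P16Rik overlaps Nfix, and Gm17494 overlaps Gclm and Dnttip2, all on the opposite strand, and without knowledge of the strand setting their reads cannot be told apart from those of the partner.

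**Figure D2:**
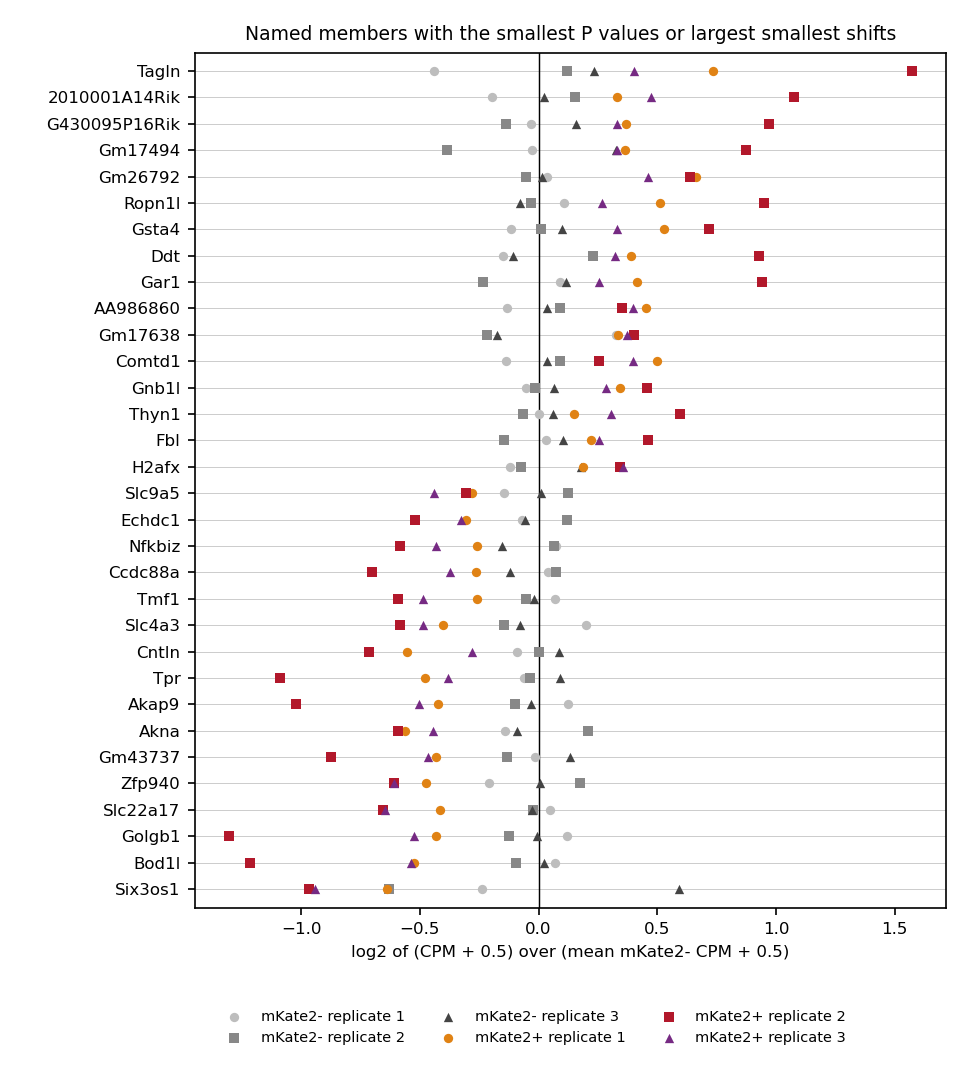
Log2 shift from the mKate2- mean (horizontal axis) in each of the 6 SB28 libraries for the 32 members named for the smallest P values or the largest smallest shifts, grey symbols for mKate2- and coloured symbols for mKate2+ libraries. In every row the coloured symbols lie to one side of the grey ones, which the choice required of the 16 genes named for their smallest shift, and for most genes replicate 2 (red squares) lies farthest out, whereas for Comtd1, AA986860, H2afx, Gm26792, Slc9a5 and, narrowly, Zfp940 another mKate2+ library does.

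The lower members with the smallest P values were led by genes of large proteins of the Golgi, centrosome and nucleus. Tmf1, which encodes a coiled-coil protein of the Golgi, was at 52.1, 47.7 and 49.0 CPM in mKate2- and 41.3, 32.8 and 35.2 CPM in mKate2+ libraries. Every mKate2+ library was below every mKate2- library, and replicates 2 and 3 were close. Its log2 fold change was -0.44 (standard error 0.11, edgeR, unadjusted P = 0.0032), -0.38 without mKate2+ replicate 2 and -0.41 after removal of the length trend. Bod1l, whose product protects stalled replication forks, was at 39.1, 34.9 and 37.8 CPM and at 25.8, 15.8 and 25.5 CPM. Its mKate2+ replicates 1 and 3 agreed closely below all mKate2- libraries, and the log2 fold change was -0.74 (standard error 0.18), or -0.54 without replicate 2.

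Akap9 encodes a scaffold that anchors kinases and microtubule nucleation at the centrosome and Golgi. It was at 49.8, 42.6 and 44.7 CPM in mKate2- and 33.9, 22.3 and 32.1 CPM in mKate2+ libraries, a log2 fold change of -0.63 that was -0.48 without mKate2+ replicate 2, and it overlaps Cyp51 on the opposite strand. Tpr, which forms the basket of the nuclear pore, was at 107, 108 and 118 CPM and at 79.7, 52.1 and 85.2 CPM, a log2 fold change of -0.62 that was -0.44 without that library. Both genes were lower in mKate2+ replicates 1 and 3 alone. Tpr overlaps Odr4 and Prg4 on the opposite strand. Ccdc88a, which encodes the actin-binding protein girdin, was at 54.3, 55.5 and 48.5 CPM and at 43.9, 32.2 and 40.6 CPM, and Cntln, which encodes the centrosomal protein centlein, at 15.7, 16.8 and 17.8 CPM and at 11.3, 10 and 13.7 CPM. Their log2 fold changes were -0.44 and -0.52 with all libraries and -0.33 and -0.43 without mKate2+ replicate 2.

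Smaller regulators, enzymes and transporters completed the lower group. Nfkbiz, an atypical inhibitor protein that acts on NF-kB target genes in the nucleus, was at 26.8, 26.6 and 22.8 CPM in mKate2- and 21.1, 16.8 and 18.7 CPM in mKate2+ libraries, with a log2 fold change of -0.43 (standard error 0.12). Echdc1, a metabolite repair enzyme that removes ethylmalonyl-CoA, was at 19.2, 21.9 and 19.3 CPM and at 16.2, 13.9 and 16 CPM, and it overlaps Rnf146 on the opposite strand. The groups came closest between mKate2- replicate 3 and mKate2+ replicate 1 for Nfkbiz, and between mKate2- replicate 1 and mKate2+ replicate 1 for Echdc1. Slc9a5, a sodium and proton exchanger, was at 47.0, 56.8 and 52.5 CPM in mKate2- and 42.8, 42.1 and 38.2 CPM in mKate2+ libraries, and its log2 fold change of -0.35 was -0.37 without mKate2+ replicate 2. Slc4a3, an anion exchanger, was at 9.44, 7.32 and 7.70 CPM and at 6.05, 5.27 and 5.67 CPM, a log2 fold change of -0.52 that was -0.48 without that library. The 3 mKate2+ libraries were closer to one another than the mKate2- libraries for both exchangers.

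Lower members near the detection minimum included Slc22a17, a receptor of the iron carrier lipocalin, at 2.95, 2.78 and 2.77 CPM in mKate2- and 2.00, 1.62 and 1.63 CPM in mKate2+ libraries. Akna, which encodes an AT-hook protein, was at 2.66, 3.52 and 2.77 CPM and at 1.86, 1.81 and 2.06 CPM. Zfp940, a zinc finger gene, was at 2.77, 3.77 and 3.29 CPM and at 2.22, 1.98 and 1.98 CPM. The log2 fold changes of these 3 genes, -0.69, -0.64 and -0.67, were -0.65, -0.62 and -0.65 without mKate2+ replicate 2. Six3os1, a noncoding transcript opposite Six3, was at 1.79, 1.24 and 3.56 CPM in mKate2- and 1.23, 0.879 and 0.901 CPM in mKate2+ libraries and averaged 231 CPM in astrocytes. Its groups touched at mKate2- replicate 2 and mKate2+ replicate 1, and its log2 fold change ran from -1.41 to -0.58 with each library left out, the smallest without mKate2- replicate 3. Gm43737, a transcript still to be verified in the annotation that overlaps Mtx1 on the opposite strand, was at 4.05, 3.69 and 4.53 CPM and at 2.90, 2.01 and 2.82 CPM.

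Large coiled-coil scaffolds were the list with the lowest median. Long coiled-coil proteins tether vesicles to the Golgi, build the centrosome and link the cytoskeleton, and this list was assembled when its members were already known to be lower, so its counts are a description. Of its 24 genes, 0 were higher and 22 were lower in every mKate2+ library (background 17.2% lower), 18 without overlap of the groups (background 5.00%), and 15 had an unadjusted P value below 0.05 (background 1.27%). The median log2 fold change was -0.47, against 0.003 over all genes tested, and the median shift was -0.25, -1.02 and -0.38 in mKate2+ replicates 1, 2 and 3. Without replicate 2 the median was -0.32, after removal of the length trend -0.36 and with both changes, an alternative chosen after seeing the data, -0.26. The median exonic length of the list was 11928.5 bases, against 4457 bases over all genes tested.

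Golgb1, the gene of the Golgi tether giantin, was at 85.6, 72.2 and 78.3 CPM in mKate2- and 58.2, 31.6 and 54.6 CPM in mKate2+ libraries. Its mKate2+ replicates 1 and 3 were well below the lowest mKate2- library, and its log2 fold change of -0.71 was -0.49 without replicate 2. Eea1, the early endosome tether, was at 42.9, 45 and 46.2 CPM and at 40.5, 25.3 and 32.6 CPM, a log2 fold change of -0.45 (standard error 0.16) that was -0.30 without that library. Cep290, a protein of the ciliary gate, was at 5.32, 6.19 and 6.56 CPM and at 4.88, 3.57 and 3.37 CPM, and its log2 fold change of -0.61 was -0.55 without mKate2+ replicate 2. For Cep290 the lowest library was replicate 3, not replicate 2.

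The G2 and M phase list held 47 measured genes. In every mKate2+ library 10 of them were higher and 7 lower (backgrounds 16.7% and 17.2%), with 4 and 4 without overlap (backgrounds 4.19% and 5.00%), and the list median of -0.03 was 0.04 without mKate2+ replicate 2. Plk1, the polo-like kinase that drives entry into mitosis, was at 129, 125 and 131 CPM in mKate2- and 163, 140 and 146 CPM in mKate2+ libraries. All mKate2+ libraries were above all mKate2- libraries and replicate 1, not replicate 2, was the highest. Its log2 fold change was 0.22 (standard error 0.08, edgeR, unadjusted P = 0.0294). Aurka, the mitotic Aurora A kinase, was at 151, 139 and 144 CPM and at 170, 164 and 154 CPM, and Ube2c, the ubiquitin-conjugating enzyme of the anaphase-promoting complex, at 223, 204 and 215 CPM and at 251, 265 and 223 CPM. Anp32e, a histone chaperone, was at 157, 151 and 158 CPM and at 162, 184 and 170 CPM. The log2 fold changes of Aurka, Ube2c and Anp32e were 0.17, 0.20 and 0.15, or 0.16, 0.14 and 0.09 without mKate2+ replicate 2, and for Ube2c the nearest libraries of the groups were both 223 CPM when rounded.

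The 4 genes of this list that were lower without overlap had longer exonic sequence than the 4 that were higher. Mki67, the gene of the proliferation antigen Ki-67 that coats mitotic chromosomes, was at 147, 132 and 157 CPM in mKate2- and 106, 49.7 and 113 CPM in mKate2+ libraries, a log2 fold change of -0.70 (standard error 0.27, edgeR, unadjusted P = 0.0332). Cenpe, a kinesin that holds kinetochores to microtubules, was at 56.5, 52.5 and 63.2 CPM and at 45.1, 23.2 and 42.1 CPM. Cenpf, another kinetochore protein, was at 56.5, 55.6 and 60.9 CPM and at 53.0, 25.2 and 41.6 CPM, and Smc4, a condensin subunit, at 238, 232 and 236 CPM and at 222, 162 and 208 CPM. The log2 fold changes of Mki67, Cenpe, Cenpf and Smc4 were -0.70, -0.64, -0.53 and -0.26, or -0.41, -0.40, -0.29 and -0.14 without mKate2+ replicate 2. In all 4 genes mKate2+ replicate 2 was the lowest, and replicates 1 and 3 also lay below every mKate2- library. Exonic length was 10061 bases for Mki67, 8620 for Cenpe, 15433 for Cenpf and 5210 for Smc4, against 2199 bases for Plk1, 2531 for Aurka, 2600 for Ube2c and 3566 for Anp32e. Of 36 S phase genes, 4 were higher and 1 lower in every mKate2+ library and 0 did not overlap, beside the same backgrounds, and the list median was 0.02, or 0.04 without mKate2+ replicate 2.

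**Figure D3:**
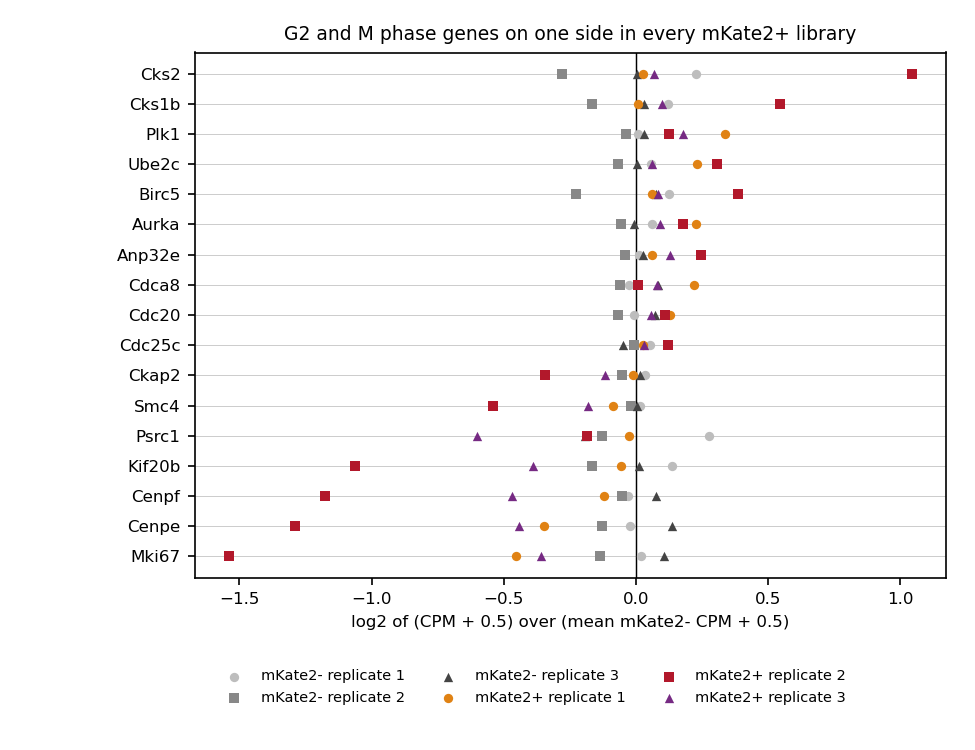
Log2 shift from the mKate2- mean (horizontal axis) in each of the 6 SB28 libraries for the 17 G2 and M phase genes that lay on one side of it in every mKate2+ library, ordered by fold change. The 10 genes at the top have all coloured symbols right of zero and the 7 at the bottom left of it, and Plk1, Aurka, Cdca8 and Cdc20 have replicate 1 (orange circles) as the highest library.

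Genes of RNA processing were the list with the highest median, and that median rested on one library. The Sm and LSm proteins form the core rings of spliceosomal RNPs. All 21 genes had a log2 fold change above 0, beside 6039 of all 11854 genes tested, with a median of 0.37. In every mKate2+ library 12 were higher and 0 lower (backgrounds 16.7% and 17.2%), and 1 was higher without overlap (background 4.19%). The median shift was 0.034, 0.69 and 0.079 in mKate2+ replicates 1, 2 and 3, and the median log2 fold change was 0.054 without replicate 2. Snrpf, a ring subunit, was at 30.4, 23.6 and 29.1 CPM in mKate2- and 29.2, 76.8 and 33.1 CPM in mKate2+ libraries, and Snrpg at 43.1, 26.5 and 32.5 CPM and at 33.5, 132 and 37.1 CPM. Their log2 fold changes of 0.75 and 0.99 were 0.17 and 0.05 without mKate2+ replicate 2, and replicates 1 and 3 lay within or just above the range of the mKate2- libraries in both. The 13 RNA polymerase II subunits had a median of 0.25, with 7 higher and 0 lower in every mKate2+ library beside the same backgrounds, and a median of 0.087 without replicate 2. Polr2i was at 9.04, 8.17 and 8.38 CPM and at 8.90, 21.9 and 9.71 CPM, and its log2 fold change went from 0.66 to 0.12 without that library.

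**Figure D4:**
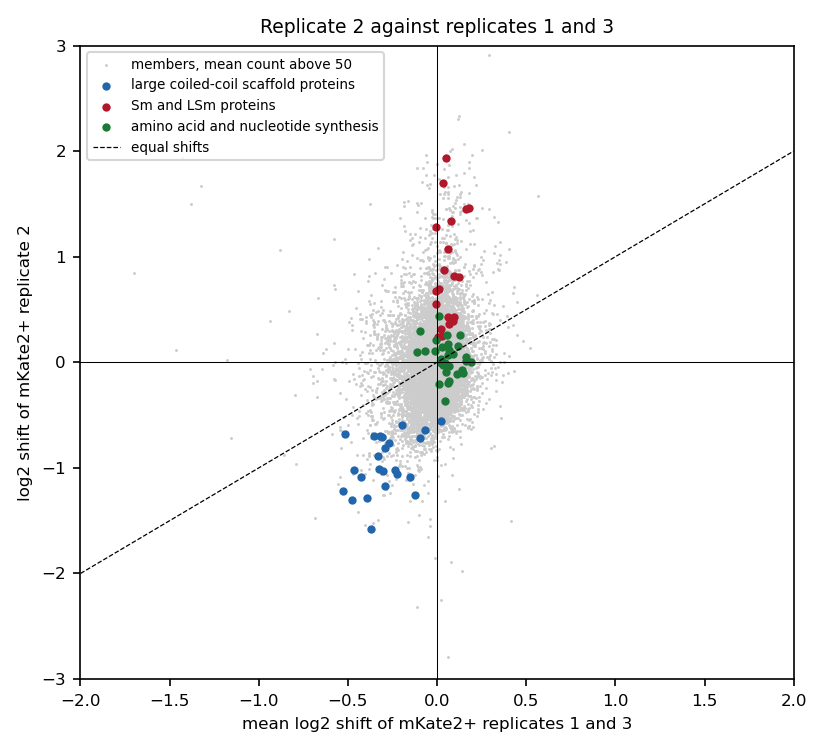
Log2 shift of mKate2+ replicate 2 (vertical axis) against the mean log2 shift of mKate2+ replicates 1 and 3 (horizontal axis) for the 10847 members with a mean normalized count above 50, of which 3 lie outside the axes, with 3 gene lists coloured. The Sm and LSm genes (red) are spread upwards along zero, the coiled-coil scaffolds (blue) lie low and to the left, and the synthesis genes (green) lie near the origin, mostly right of zero.

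Amino acid and nucleotide synthesis was one of the lists whose median was much alike in the 3 mKate2+ libraries. Its median shift was 0.044, 0.040 and 0.082 in replicates 1, 2 and 3, and its median log2 fold change of 0.059 was 0.058 without replicate 2 and 0.060 after removal of the length trend. The SD of the 3 median shifts was 0.023, against 0.014 for apoptosis regulators and 0.027 for intercellular connections. The median log2 fold changes of the latter lists were 0.013 and -0.007. Of the 30 synthesis genes, 25 had a log2 fold change above 0, beside 6039 of all 11854 genes tested. In every mKate2+ library 7 of the 30 were higher and 0 lower (backgrounds 16.7% and 17.2%), and 0 separated the groups (backgrounds 4.19% and 5.00%). Got1, the cytosolic transaminase that makes aspartate from oxaloacetate, was at 251, 263 and 242 CPM in mKate2- and 288, 302 and 263 CPM in mKate2+ libraries. Impdh2, which commits purine synthesis to guanine nucleotides, was at 229, 237 and 248 CPM and at 240, 286 and 255 CPM. The log2 fold changes were 0.17 (standard error 0.09) and 0.13 (standard error 0.09), or 0.12 and 0.05 without mKate2+ replicate 2.

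Antioxidant genes had median shifts of 0.12, 0.22 and -0.011 in mKate2+ replicates 1, 2 and 3. Of 27 glutathione and NRF2 target genes, 8 were higher and 1 lower in every mKate2+ library (backgrounds 16.7% and 17.2%), 3 and 1 without overlap (backgrounds 4.19% and 5.00%), and the median of 0.14 was 0.039 without mKate2+ replicate 2. Prdx6, a peroxiredoxin that reduces lipid peroxides, was at 269, 260 and 264 CPM in mKate2- and 287, 342 and 277 CPM in mKate2+ libraries, so that replicates 1 and 3 lay just above the mKate2- range. Sod1, the cytosolic superoxide dismutase, was at 146, 123 and 125 CPM and at 143, 366 and 144 CPM, and Txn1, or thioredoxin, at 410, 303 and 303 CPM and at 353, 863 and 352 CPM. Both overlapped the mKate2- libraries except in replicate 2, and the log2 fold changes of Prdx6, Sod1 and Txn1 went from 0.19, 0.73 and 0.63 to 0.09, 0.12 and 0.05 without it. Mgst1, a microsomal glutathione transferase, was the member lower without overlap, at 1.64, 1.46 and 1.63 CPM and at 1.18, 1.21 and 1.25 CPM.

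Metal-response genes showed how far a call can depend on one library. Mt1, the gene of a zinc-binding metallothionein, was at 78.7, 72.6 and 60.1 CPM in mKate2- and 83.7, 275 and 78.2 CPM in mKate2+ libraries, and passed the criteria for a higher gene with a log2 fold change of 1.05 (standard error 0.45, edgeR, unadjusted P = 0.0499). Mt2 was at 6.31, 6.91 and 5.81 CPM and at 7.12, 19.6 and 5.93 CPM. The gene of ferritin heavy chain, Fth1, which stores iron, was at 2676, 2729 and 2499.8 CPM and at 2853, 4693 and 2692 CPM. The log2 fold changes of Mt1, Mt2 and Fth1 were 0.19, 0.03 and 0.07 without mKate2+ replicate 2, and in all 3 the values of replicates 1 and 3 lay within the mKate2- range or just above it. Cyp1a1, the classic target of the aryl hydrocarbon receptor, was the reverse case, at 1.17, 0.798 and 0.620 CPM and at 3.89, 1.02 and 1.10 CPM, with replicate 1 alone outside the mKate2- range.

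The actin list is given by its counts. Of 22 contractile actin and serum response factor target genes, 7 were higher and 4 lower in every mKate2+ library (backgrounds 16.7% and 17.2%), 4 and 1 without overlap (backgrounds 4.19% and 5.00%), with a median of 0.036. Of the 22, Tagln and Myl6b were called higher by fold change, P value and count (background 0.194%). The mean normalized count of Tagln was 51.9, just above the minimum of 50. It averaged 0.870 CPM in mKate2- and 2.22 CPM in mKate2+ libraries, so that its passing the minimum rested on the mKate2+ libraries. With more than 50 counts required in every library, 9 members in place of 19 were called higher. Actb, or beta-actin, was at 2700.4, 2766 and 2818 CPM in mKate2- and 2997, 3547 and 3068 CPM in mKate2+ libraries, a log2 fold change of 0.21 (standard error 0.10) that was 0.13 without replicate 2. Tagln2, a relative of transgelin, was at 269, 268 and 272 CPM and at 299, 318 and 291 CPM, a log2 fold change of 0.17 (standard error 0.08) that was 0.08 after removal of the length trend. The mKate2- libraries were nearly level for both, and all mKate2+ libraries were above them. Myl6b, a myosin light chain, was at 4.92, 5.48 and 5.87 CPM and at 6.33, 12.2 and 7.56 CPM, and S100a13, a calcium-binding protein gene, at 2.41, 2.70 and 2.51 CPM and at 2.79, 9.78 and 3.23 CPM. Their log2 fold changes of 0.68 and 1.05 were 0.35 and 0.24 without mKate2+ replicate 2.

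Genes of intercellular connections and uptake, through which mitochondria might pass, were counted in 2 lists. Of 21 genes of connections and organelle trafficking, 5 were higher and 3 lower in every mKate2+ library (backgrounds 16.7% and 17.2%), 0 and 2 without overlap (backgrounds 4.19% and 5.00%), with a median of -0.007 that was -0.004 without mKate2+ replicate 2. Gja1 was at 239, 278 and 264 TMM-normalized CPM in mKate2- and 261, 302 and 282 CPM in mKate2+ libraries, and Cdc42, a GTPase of filopodia, at 513, 547 and 535 CPM and at 544, 649 and 579 CPM. The groups overlapped for both, and log2 fold changes of 0.11 and 0.15 were 0.05 and 0.07 without mKate2+ replicate 2. Rhot2, the gene of a Miro GTPase that links mitochondria to motor proteins, was at 21.8, 22 and 24 CPM and at 21.3, 18.5 and 20.8 CPM, and Cd38, an ectoenzyme, at 28.0, 27.6 and 25.1 CPM and at 24, 23.4 and 23.5 CPM. Both were lower without overlap, with log2 fold changes of -0.16 and -0.18. Of 25 genes of endocytosis and macropinocytosis, 2 were higher and 4 lower in every mKate2+ library, beside the same backgrounds.

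Hypoxia and immediate-early genes respond to low oxygen and to growth factors, respectively. The median shift of 15 hypoxia genes was -0.22, 0.34 and -0.16 in mKate2+ replicates 1, 2 and 3, and 0 were higher and 1 lower in every library (backgrounds 16.7% and 17.2%). Ndrg1, a hypoxia-induced gene, was at 58.4, 137 and 52.3 CPM in mKate2- and 67.8, 147 and 52.1 CPM in mKate2+ libraries. Bnip3, a mitophagy receptor induced by hypoxia, was at 226, 351 and 209 CPM and at 185, 323 and 205 CPM. Replicate 2 was the highest of both groups for these 2 genes, which were chosen for that pattern after their values were seen. Kdm3a, a histone demethylase induced by hypoxia, was at 63.8, 72.3 and 64.5 CPM and at 62.7, 55.8 and 57.5 CPM and was lower without overlap. Of 23 immediate-early genes, 2 were higher and 6 lower in every mKate2+ library, among them Egr3, at 18.7, 19.1 and 16.1 CPM and at 16.4, 13.8 and 14 CPM.

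The remaining lists are given by their counts, which stand beside backgrounds of 16.7% higher and 17.2% lower in every mKate2+ library. Of 22 glycolysis genes 1 was higher and 1 lower in every mKate2+ library, and the median of 0.095 was -0.038 without mKate2+ replicate 2. Of 23 sterol synthesis genes 1 was higher and 2 lower, among them Idi1, an isomerase of the mevalonate pathway, at 184, 190 and 154 CPM in mKate2- and 154, 150 and 147 CPM in mKate2+ libraries. Its mKate2+ replicate 1 and mKate2- replicate 3 were both 154 CPM when rounded. Of 20 genes of ATF4 and the unfolded protein response 2 were higher and 1 lower, and Herpud1, a gene of endoplasmic reticulum degradation, was at 101, 109 and 99.4 CPM and at 112, 112 and 111 CPM. Of 17 interferon and nucleic acid sensing genes 0 were higher and 2 lower, of 12 inflammatory genes 1 and 1, of 17 apoptosis regulators 3 and 3, of 17 Ragulator and mTORC1 genes 5 and 5, of 15 cell cycle brakes 1 and 2, of 20 genes of autophagy and lysosomes 2 and 1, of 22 matrix and TGF-beta genes 1 and 3, and of 15 S100 and annexin genes 3 and 0. Of 8 genes of the aryl hydrocarbon receptor pathway 2 were higher and 1 lower, and of 11 metal-response genes 3 and 0.

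Lineage genes are those of the cell types from which gliomas are thought to arise. Of 20 glial progenitor and stem cell factors, 2 were higher and 5 lower in every mKate2+ library, beside the same backgrounds of 16.7% and 17.2%. Myc was at 123, 130 and 123 CPM in mKate2- and 122, 119 and 122 CPM in mKate2+ libraries, a log2 fold change of -0.06 (standard error 0.07) with the nearest libraries of the groups at 122 and 123 CPM, and of -0.03 without mKate2- replicate 2. Olig2 was at 1.71, 0.936 and 2.87 CPM and at 1.42, 0.632 and 0.582 CPM, with overlap. Map2, a microtubule protein of neurons, was at 21.8, 19.8 and 21.8 CPM and at 17.1, 16.3 and 17.5 CPM, lower without overlap with a log2 fold change of -0.31 (standard error 0.10, edgeR, unadjusted P = 0.0118) that was -0.17 after removal of the length trend. The other 2 measured neuron markers, Tubb3 and Stmn2, had log2 fold changes of 0.16 and 0.30, or 0.04 and 0.34 without mKate2+ replicate 2. The list median of 0.16 was 0.04 without that library and 0.06 after removal of the length trend. Tubb3 was also at 0.06 after that removal, and Stmn2 ranged from -0.004 to 0.46 with each library left out. Slc1a3, an astrocyte glutamate transporter that averaged 195 CPM in astrocytes, was at 1.09, 0.936 and 2.32 CPM and at 0.822, 0.604 and 1.10 CPM. Of the 9 measured astrocyte markers, 4 had a log2 fold change above 0 and 5 below, beside 6039 and 5815 of all 11854 genes tested. In every mKate2+ library 1 of them was higher and 3 lower (backgrounds 16.7% and 17.2%), and 0 were without overlap (backgrounds 4.19% and 5.00%).

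**Figure D5:**
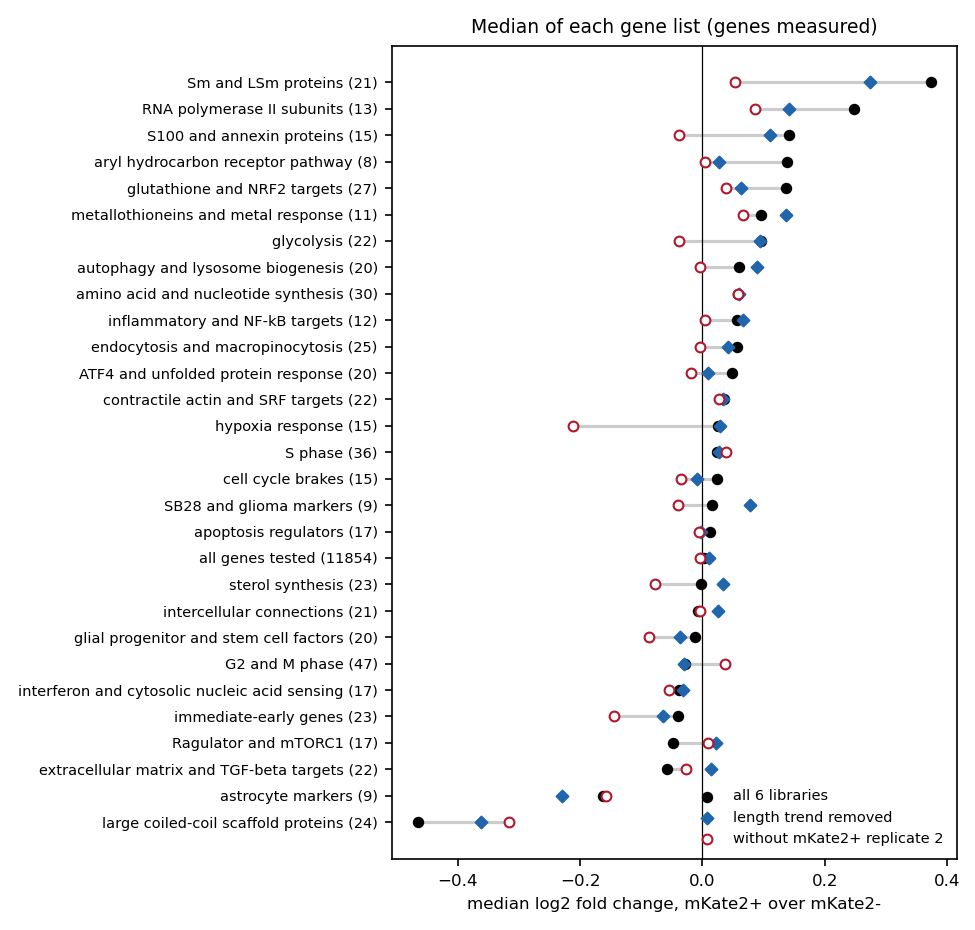
Median log2 fold change of mKate2+ over mKate2- cells (horizontal axis) for 28 gene lists with 8 or more measured genes and for all genes tested, with all 6 libraries (black), after removal of the length trend (blue) and without mKate2+ replicate 2 (open red). The coiled-coil scaffolds, a list assembled when its members were known to be lower, are at -0.47, -0.36 and -0.32 in that order. The Sm and LSm median goes from 0.37 to 0.054 without mKate2+ replicate 2.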

How the data were processed

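RNA of 3 mKate2+ and 3 mKate2- SB28 libraries and 3 astrocyte libraries was sequenced from sorted co-cultures. The authors deposited raw read counts per gene, without normalization, and the submitters' processing notes name Trimmomatic 0.36, STAR 2.5.2b, Subread 1.5.2 with featureCounts, and the build GRCm38. The annotation release and strand setting are not given in the sources used here. Names, positions and exonic lengths came from GENCODE M21 (GRCm38), which lacks 259 of the 49315 gene IDs, and promoters from RefSeq (GRCm38.p6), taking the first entry of a gene.

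Counts were fitted with R 4.3.3, edgeR 4.0.16 (TMM, glmQLFit, glmQLFTest, a minimum of 1 CPM in 2 or more of the 6 SB28 libraries, Benjamini-Hochberg adjustment over 11854 genes), limma 3.58.1 and DESeq2 1.42.0. Values per SB28 library are TMM-normalized CPM unless stated. Astrocyte values are CPM of the library totals throughout, so the scales differ where they stand beside TMM-normalized values. A standard error is the log2 fold change over the square root of F. Length trends were removed by loess (span 0.3) entered as offsets. The procedure was tested on simulated data.

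The members, the 33 gene lists and the tests were chosen with earlier results of these data known. Named genes are, above a mean normalized count of 50, the 10 per direction with the smallest P values among members on one side of the mKate2- mean in every mKate2+ library and the 8 per direction without overlap with the largest smallest shift, and, with no such minimum, up to 2 per list and direction with the smallest P values, with markers. Aurka, Anp32e, Cenpf, Smc4, Cep290, Txn1, Fth1, Prdx6, Actb, Tagln2, Myc, Rhot2, Ndrg1, Bnip3, Nhp2, Nop10, genes named only for an overlap and those named only in a plot's caption were named after their values were seen. Beside the overlaps given in the text, Akna overlaps Aknaos, Ube2c Tnnc2, Impdh2 Ndufaf3 and Sod1 Scaf4 on the opposite strand. Also on the opposite strand, Polr2i overlaps Tbcb, Snrpf Ccdc38, Cnp Dnajc7 and Nhp2 Rmnd5b. Rhot2 overlaps Wdr90 on the same strand. Overlaps with predicted gene models, genes whose symbol ends in Rik, pseudogenes and small RNAs are not all listed. Total counts of 27187348 to 39287841 per SB28 library make counting error small except near 1 CPM.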

Additional observations from a re-analysis of the deposited data

How the results depend on the processing

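With each library left out in turn, members called higher by fold change, P value and count ranged from 4 to 190 (19 with all 6 libraries) and those called lower from 16 to 70 (20 with all). Members higher in every mKate2+ library ranged from 2066 to 3029 and lower from 2174 to 3529, and members without overlap from 781 to 1178 higher and 987 to 1474 lower, in part because fewer libraries have to agree. mKate2+ replicates 1 and 3 mattered as well as replicate 2 for the calls, with 190 and 146 called higher and 70 and 35 called lower without them. Leaving out mKate2- replicate 1 or 2 gave 12 or 10 called higher. DESeq2 called 51 higher, the fit to all 9 libraries 31 higher and 13 lower (132 members with an unadjusted P value below 0.05, against 233), removal of the length trend 10 higher and 20 lower, and above 50 counts in every library 9 higher. With no filter on low counts, 131 members were called higher and 35 lower, 3101 and 5948 lay higher and lower in every mKate2+ library, and 901 and 944 did not overlap. Scaling by library totals gave 1164 higher in every library and 242 higher without overlap. Removing the length trend and mKate2+ replicate 2 together, chosen after seeing the data, gave 4 called higher and 15 lower, 3566 higher and 2960 lower in both remaining libraries, and 1046 higher and 783 lower without overlap. Removing the length trend alone gave 2060 higher and 1790 lower in every library and 548 higher and 468 lower without overlap, so that by these counts, though not by the calls, more members were higher than lower under both settings, the reverse of 1856 against 2028 and 481 against 591. The adjusted P value was below 0.05 for 0 members in each alternative for which it was computed, and its smallest value was 0.0572, without a filter on low counts, where the unadjusted P value was below 0.05 for 1089 members.

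With replicate number as a block, 393 members had an unadjusted P value below 0.05, 12 were called higher and 33 lower, and 1671 and 1855 lay higher and lower in every mKate2+ library than the mKate2- library of the same number. The correlation of deviations from the group means between same-numbered libraries was -0.030, 0.110 and 0.275 for replicates 1, 2 and 3, and no source used here ties a number to one co-culture, so the numbers were not taken as pairs. mKate2+ replicates 2 and 3 correlated best with the mKate2- library of their own number, and mKate2+ replicate 1 did not.

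Of 77 genes followed, 75 kept their sign under every alternative. The 77 leave out markers named only for their level, and also Stmn2, Nop56, Nop58 and Dkc1. Nop56, Nop58 and Dkc1 changed sign without mKate2+ replicate 2. Among the markers, Pdgfra, Cd68, Cnp, Flt1 and Stmn2 changed sign with 1 library left out. Removal of the length trend moved the log2 fold changes of Ddt, Snrpf, Polr2i, Txn1, Mt2, Nhp2, Aurka, Got1 and Myc by more than 1.5 times, to 0.38, 0.48, 0.44, 0.39, 0.46, 0.30, 0.11, 0.12 and -0.11, and that of Gja1 from 0.11 to 0.21. It also moved Tubb3 to 0.06. The list medians of RNA polymerase II subunits, glutathione and NRF2 targets, and intercellular connections became 0.14, 0.06 and 0.02 after this removal. Ndrg1 ranged from -0.47 to 0.69 with each library left out and was -0.45 without mKate2+ replicate 2 and the length trend. Bnip3 ranged from -0.43 to 0.13. Of the 33 gene lists, 25 had a median that changed sign under at least 1 alternative, and 17 of 297 list medians moved by more than the SD of the list's median shift over the 3 mKate2+ libraries. Near 1 CPM a value rests on few counts, and 3 libraries a group limit what could be detected.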

Other observations

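Since Gar1 and Fbl were both among the higher genes, the 8 protein genes of small nucleolar RNPs were counted after their values were seen. Their median log2 fold change was 0.23, with 4 higher and 0 lower in every mKate2+ library (backgrounds 16.7% and 17.2% over all genes tested) and 3 higher without overlap (background 4.19%), and it was 0.11 without mKate2+ replicate 2. Nhp2, which binds the H/ACA guide RNAs, was at 95.9, 79.3 and 92.1 CPM in mKate2- and 97.3, 169 and 108 CPM in mKate2+ replicates 1, 2 and 3, a log2 fold change of 0.49 that was 0.20 without replicate 2. Nop10, the smallest protein of that class, was at 51.6, 37.9 and 39.7 CPM and at 44.3, 128 and 49.9 CPM, with replicate 2 alone above the mKate2- libraries. Nop56, Nop58 and Dkc1 of the same list had log2 fold changes of -0.06, -0.01 and -0.05, or 0.03, 0.05 and 0.09 without replicate 2.

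Zinc finger genes whose symbol begins with Zfp and a number, mostly transcriptional regulators, were counted as well. Of 321 such members, 24 were higher and 110 lower in every mKate2+ library, and 5 higher and 43 lower without overlap, beside backgrounds of 16.7% and 17.2% in every library and 4.19% and 5.00% without overlap. Their median log2 fold change was -0.095 with all libraries, -0.053 without mKate2+ replicate 2 and -0.081 after removal of the length trend, and the median shift was -0.074, -0.19 and -0.022 in mKate2+ replicates 1, 2 and 3. Their median exonic length of 4715 bases was close to the 4538 bases of all members. This group was also chosen after its values were seen and carries no test.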
